A study of Rattus norvegicus with 12 samples.

Results

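Genes that mark the epicardium, the cell sheet that covers the heart, and mesothelium, the lining of the body cavities, were followed in cultures of newborn rat heart muscle cells exposed to a plasticiser. The list holds 10 genes: Upk1b, Upk3b, Gpm6a, Msln, Wt1, Tcf21, Tbx18, Krt8, Krt18 and Krt19. Members were the array's probe sets whose annotation gave exactly 1 gene symbol and whose symbol was on the list. That rule found 9 of the 10 genes through 11 probe sets, out of 14324 genes measured on 27342 probe sets; no probe set carried Upk3b as its single symbol.

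The series used Affymetrix expression arrays and asked how expression in cardiomyocytes changed with the dose of di(2-ethylhexyl) phthalate (DEHP), which softens polyvinyl chloride. Heart cells of Sprague-Dawley rat pups aged 2 days were grown for 3 days and then treated for 3 days. The 4 groups were vehicle (0.1% dimethyl sulfoxide alone) and DEHP at 1, 10 or 50 µg/ml in the same 0.1% dimethyl sulfoxide, with 3 cultures and 3 arrays each, made from 5 µg of total RNA. All cultures came from 1 litter, and the p-values therefore speak only of how cultures of that litter vary. With 3 against 3 an exact permutation test cannot go below p = 0.1.

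The deposited value of a probe set on an array is a ratio to that probe set's median over the 12 arrays, and its log2 is used throughout. A log2 ratio of 0 is the probe set's own median, so genes cannot be ranked by level, and neither the presence of cardiomyocyte markers nor that of epicardial markers can be checked in absolute terms. Krt8 and Krt18 are averaged over probe sets, so 0 need not be their exact median. A larger ratio was read as more RNA, a direction that the sources used here do not record; if the ratio were inverted, every direction below would turn. The median ratio of an array lay between 0.994 and 1.01, and the SD of log2 ratios over probe sets was 0.087 to 0.092 on vehicle arrays against 0.166 to 0.199 at 50 µg/ml. Replicate 2 at 10 µg/ml, with an SD of 0.17 beside 0.088 and 0.097 for the other arrays of that dose, and replicate 3 at 1 µg/ml, with 0.143 beside 0.12 and 0.125, were the widest of their groups.

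The epicardium is itself a mesothelium. In the embryo it grows over the heart, and some of its cells lose their epithelial form, enter the muscle wall and give rise to fibroblasts and vessel smooth muscle, under the control of transcription factors that include Wt1, Tcf21 and Tbx18. Its cells carry keratin filaments and surface proteins that heart muscle cells largely lack, and Wt1 and Upk3b are widely used to recognise it in dissociated hearts, which yield more cell types than the myocytes that give such cultures their name.

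Of the 9 genes measured, Upk1b and Gpm6a rose most at the highest dose, and the RefSeq promoter table (build GRCr8) held a sequence for both. Promoter entries existed for 8 of the 10 genes. Sequence ahead of the transcription start is shown for Upk1b and Gpm6a because they carried the largest differences, and for Tcf21 because, of the 3 transcription factors, it alone was called between 50 and 10 µg/ml, a call that 7 of 20 alternatives lost. The choice does not mark Tcf21 as the factor that responded most. It did not pass against vehicle, and Wt1 was called between 50 and 1 µg/ml under all 20 alternatives. Capitals mark matches, on either strand, to the motifs searched: the E-box CANNTG, which bHLH factors such as Tcf21 bind, the TEAD site GGAATG, and the GATA site AGATAA. The Upk1b stretch is chr11:75459131-75459243 on the plus strand and is shorter than the others, because it stops ahead of the first annotated transcript; Gpm6a is chr16:43706462-43706711 on the minus strand and Tcf21 chr1:24520249-24520498 on the plus strand.
Upk1b: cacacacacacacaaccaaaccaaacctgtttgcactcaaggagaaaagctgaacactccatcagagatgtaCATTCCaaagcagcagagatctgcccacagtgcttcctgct
Gpm6a: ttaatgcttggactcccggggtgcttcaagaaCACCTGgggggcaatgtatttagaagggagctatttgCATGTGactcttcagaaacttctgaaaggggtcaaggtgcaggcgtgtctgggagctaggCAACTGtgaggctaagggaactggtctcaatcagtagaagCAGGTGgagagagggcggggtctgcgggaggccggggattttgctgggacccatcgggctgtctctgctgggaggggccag
Tcf21: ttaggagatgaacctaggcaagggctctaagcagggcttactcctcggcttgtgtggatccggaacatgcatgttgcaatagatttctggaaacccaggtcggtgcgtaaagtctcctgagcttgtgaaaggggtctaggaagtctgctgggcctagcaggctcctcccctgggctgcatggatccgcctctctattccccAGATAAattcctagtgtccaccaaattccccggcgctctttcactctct
In the 250 bases ahead of each start, an E-box was found in 6 of the 8 promoters, with 4 matches in Gpm6a, against 65.5% of the 33469 promoters in the table. The TEAD site was found only in Upk1b among the 8, and in 12.1% of all promoters. The GATA site was found only in Tcf21 among the 8, and in 10.3% of all promoters. The T-box motif AGGTGTGA, a sequence of the kind Tbx18 binds, was in 0 of the 8 promoters and in 0.959% of all. The element GCGGGGGCG, which WT1 can bind, was in Krt18 alone of the 8 and in 2.45% of all. The 3 printed stretches share none of these motifs. The single E-box of Upk1b lies outside the bases shown, past the start of the first annotated transcript of the gene. Tcf21 had no E-box in its 250 bases. A match describes letters only.

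At 50 µg/ml, 3 of the 9 measured markers were higher than in vehicle: Upk1b, Gpm6a and Krt19. None was lower, and 6 did not pass the test. The test was limma's moderated test over all 14324 genes, with Benjamini-Hochberg adjusted p under 0.05 counted as a call. In the same fit 8.75% of all genes were called higher and 8.84% lower, which is the background against which the 3 calls stand. The median difference of the 9 markers was 0.17 on the log2 scale, beside 0.018 for all genes. Bulk RNA does not tell apart more cells of a type from more RNA per cell.

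**Figure D1:**
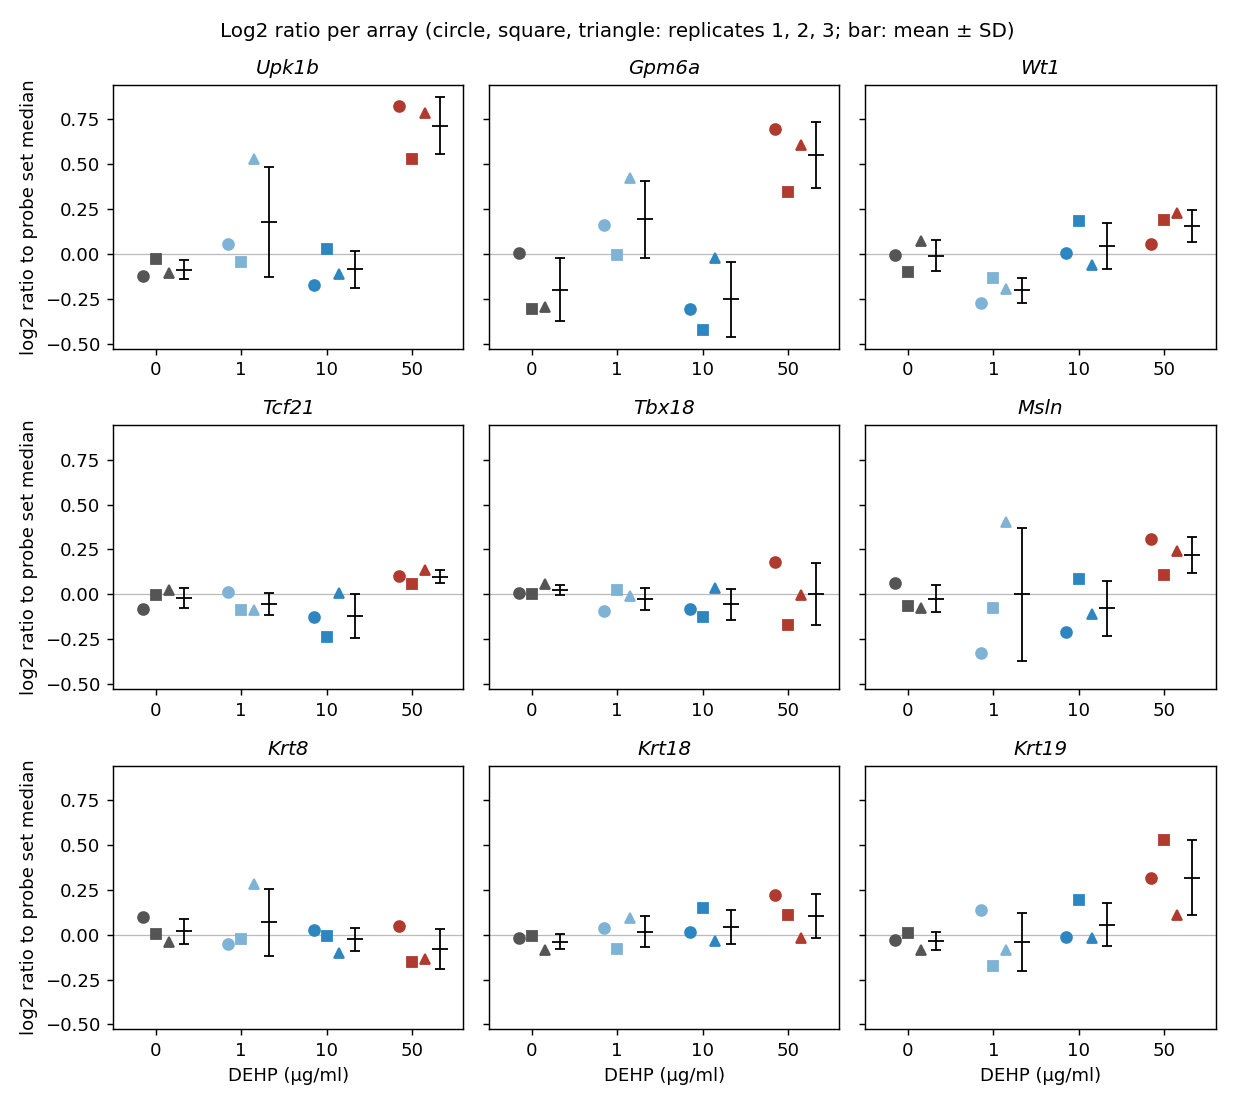
Log2 ratio to the probe set median, averaged over probe sets for Krt8 and Krt18 (vertical axis), for each of the 9 measured markers at 0 (vehicle), 1, 10 and 50 µg/ml DEHP (horizontal axis), with a symbol per array and a bar for the mean ± SD of 3 arrays. The 3 arrays at 50 µg/ml lie above all vehicle arrays for Upk1b, Gpm6a, Tcf21, Msln and Krt19, and the panels do not share a level.

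Among the surface proteins, Upk1b encodes uroplakin 1b, a tetraspanin of the urothelial plaque that mesothelial cells also make; its gene lies at chr11:75459244-75496579 in GRCr8. Its log2 ratios were -0.125, -0.029 and -0.106 on the vehicle arrays, 0.053, -0.043 and 0.53 at 1 µg/ml, -0.175, 0.029 and -0.11 at 10 µg/ml, and 0.83, 0.53 and 0.79 at 50 µg/ml. The 50 µg/ml arrays lay above every other array, with replicate 3 at 1 µg/ml just under the lowest of them, and the 10 µg/ml arrays overlapped vehicle. Upk1b was 1.74-fold higher at 50 µg/ml than in vehicle, a log2 difference of 0.80 ± 0.12 (SE, n = 3 arrays per group; 95% interval 0.53 to 1.07; limma adjusted p = 0.000648). It passed under all 20 alternative settings tried, with differences of 0.63 to 0.89. Many of these settings, such as leaving out an array of a group not compared, cannot change the difference, only its SE and p.

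Gpm6a encodes a membrane glycoprotein of the proteolipid family, best known from neurons, that adult epicardial and other mesothelial cells also express; the gene lies at chr16:43374385-43706461. Its log2 ratios were 0.003, -0.31 and -0.29 in vehicle, 0.16, -0.003 and 0.42 at 1 µg/ml, -0.31, -0.43 and -0.02 at 10 µg/ml, and 0.70, 0.34 and 0.61 at 50 µg/ml. The 50 µg/ml arrays stood above all vehicle and all 10 µg/ml arrays, while replicate 3 at 1 µg/ml exceeded the lowest of them. Against vehicle, Gpm6a was 1.68-fold higher at 50 µg/ml (log2 difference 0.75 ± 0.13, SE; 95% interval 0.46 to 1.04; limma adjusted p = 0.00176), and it too passed under all 20 alternatives, with differences of 0.68 to 0.85.

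Msln encodes mesothelin, the surface protein that gives many mesothelial tumours their serum marker; the gene lies at chr10:15276489-15285921. Its log2 ratios were 0.063, -0.063 and -0.074 in vehicle, -0.33, -0.075 and 0.40 at 1 µg/ml, -0.21, 0.087 and -0.11 at 10 µg/ml, and 0.31, 0.11 and 0.24 at 50 µg/ml. The 50 µg/ml arrays lay above the vehicle arrays without overlap, but the highest and the lowest values of the gene were both at 1 µg/ml. The difference at 50 µg/ml was 0.25 ± 0.14 (SE; 95% interval -0.063 to 0.55) and did not pass (limma adjusted p = 0.29). The adjusted p was 0.0288 when the fit held only the vehicle and 50 µg/ml arrays, whose SDs were 0.076 and 0.10 beside 0.37 at 1 µg/ml.

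Wt1, the zinc finger factor needed for epicardial cells to form and to leave the surface, lies at chr3:112019721-112068454. Its log2 ratios were -0.005, -0.099 and 0.073 in vehicle, -0.27, -0.14 and -0.20 at 1 µg/ml, 0.005, 0.19 and -0.06 at 10 µg/ml, and 0.058, 0.19 and 0.23 at 50 µg/ml. The 1 µg/ml arrays were the lowest of all 12, and the lowest 50 µg/ml array lay just under the highest vehicle array. Against vehicle the differences of 0.17 ± 0.072 (SE; 95% interval 0.012 to 0.33; limma adjusted p = 0.139) at 50 µg/ml and -0.19 ± 0.072 (95% interval -0.35 to -0.036; adjusted p = 0.155) at 1 µg/ml did not pass. Between these doses Wt1 was 1.28-fold higher at 50 µg/ml (0.36 ± 0.072, SE; limma adjusted p = 0.00367), under all 20 alternatives.

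Tcf21, the bHLH factor that marks epicardial cells bound for the fibroblast lineage and stays on in fibroblasts, lies at chr1:24520499-24523358. Its log2 ratios were -0.082, -0.005 and 0.025 in vehicle, 0.014, -0.09 and -0.088 at 1 µg/ml, -0.125, -0.24 and 0.005 at 10 µg/ml, and 0.10, 0.06 and 0.13 at 50 µg/ml. All 3 arrays at 50 µg/ml lay above the other 9, by a small margin. The difference from vehicle was 0.12 ± 0.062 (SE; 95% interval -0.014 to 0.25; limma adjusted p = 0.226) and did not pass. Tbx18, a T-box repressor of the early epicardium at chr8:97531960-97559988, ranged from 0.003 to 0.056 in vehicle and from -0.17 to 0.18 at 50 µg/ml, so that the treated arrays reached past the vehicle arrays on both sides. Its difference at 50 µg/ml was -0.021 ± 0.077 (SE; 95% interval -0.19 to 0.15; limma adjusted p = 0.894).

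The 3 keratins build the filaments of simple epithelia, with Krt8 pairing with Krt18 or Krt19. Krt19, at chr10:85576235-85580952, had log2 ratios of -0.027, 0.011 and -0.086 in vehicle, 0.14, -0.18 and -0.087 at 1 µg/ml, -0.011, 0.20 and -0.016 at 10 µg/ml, and 0.32, 0.53 and 0.11 at 50 µg/ml. The 50 µg/ml arrays lay above the vehicle arrays, but their lowest was under single arrays at 1 and 10 µg/ml. Krt19 was 1.28-fold higher at 50 µg/ml (log2 difference 0.35 ± 0.10, SE; 95% interval 0.13 to 0.58; limma adjusted p = 0.0328). This call was close to the threshold: it was lost on leaving out vehicle replicate 1 (adjusted p = 0.085), 2 (0.0648) or 3 (0.105), or 50 µg/ml replicate 1 (0.0704) or 2 (0.128), with differences of 0.25 to 0.37, and in the fit over probe sets (0.0504).

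Its partner Krt8, at chr7:135002886-135010339, ranged from -0.04 to 0.096 in vehicle and from -0.15 to 0.051 at 50 µg/ml, with its highest value, 0.28, on replicate 3 at 1 µg/ml. The difference at 50 µg/ml was -0.099 ± 0.086 (SE; 95% interval -0.29 to 0.086; limma adjusted p = 0.502). Krt18, its neighbour at chr7:135036168-135039844, ranged from -0.086 to -0.01 in vehicle and from -0.02 to 0.22 at 50 µg/ml. Its difference was 0.14 ± 0.07 (SE; 95% interval -0.008 to 0.30; limma adjusted p = 0.198). Neither passed, and in both the treated and vehicle arrays overlapped. Whether Krt19 differed from Krt8 and Krt18 in its response was not tested.

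Krt8 and Krt18 were each read by 2 probe sets, which did not move together. Over the 12 arrays Pearson's r between the probe sets was 0.23 for Krt8 and -0.20 for Krt18. It is given as a description of arrays that share group differences, litter and normalization. At 50 µg/ml the probe sets of each gene gave like differences, -0.10 and -0.096 for Krt8 and 0.15 and 0.14 for Krt18. At 1 µg/ml those of Krt18 had opposite signs, -0.063 and 0.18. Keratin pseudogenes are common, and how far each probe set reads such copies was not examined.

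**Figure D2:**
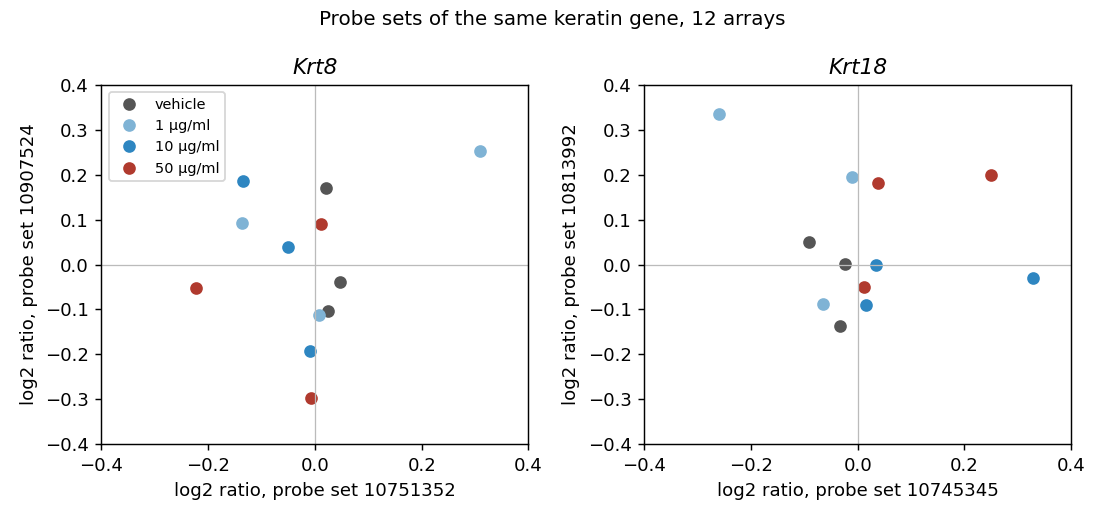
Log2 ratio of the first probe set (horizontal axis) against the second (vertical axis) of Krt8 and of Krt18, with a point per array coloured by group. The points do not follow a line in either panel (r = 0.23 for Krt8 and -0.20 for Krt18 over 12 arrays).

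At 10 µg/ml none of the 9 markers was called, and none had an unadjusted limma p under 0.05. In that comparison 0% of the 14324 genes were called, and 899 had an unadjusted p under 0.05. The 9 differences from vehicle lay between -0.099 for Tcf21 and 0.091 for Krt19, with a median of -0.047 beside -0.006 for all genes, and the lowest adjusted p was 0.807. Upk1b, at 0.001 ± 0.12 (SE), and Gpm6a, at -0.053 ± 0.13, differed from vehicle by less than these errors.

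At 1 µg/ml again none of the 9 was called, against 2.51% of all genes called higher and 1.74% lower, although Gpm6a was called with array weights (0.37, adjusted p = 0.0451) and with the replicate number as a block (0.39, adjusted p = 0.045); 2 of the 9, Gpm6a and Wt1, had an unadjusted p under 0.05. Gpm6a differed from vehicle by 0.39 ± 0.13 (SE; 95% interval 0.10 to 0.68; limma adjusted p = 0.118) and Upk1b by 0.27 ± 0.12 (adjusted p = 0.254). Both values leaned on replicate 3: without it Gpm6a was at 0.28 (adjusted p = 0.364) and Upk1b at 0.092 (adjusted p = 0.693). The same array held the highest ratio of Msln and of Krt8, and without it their differences from vehicle went from 0.025 to -0.18 and from 0.049 to -0.057, neither of them a call. The other 5 markers differed from vehicle by -0.19 (Wt1) to 0.056 (Krt18).

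**Figure D3:**
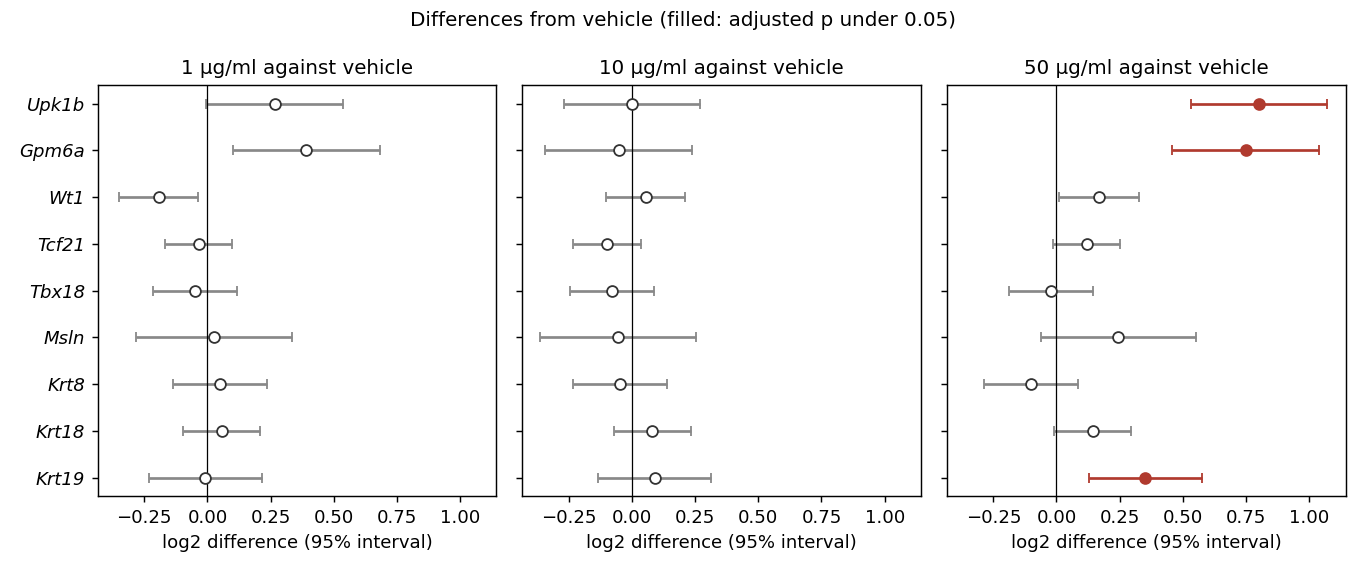
Log2 difference from vehicle (horizontal axis, with its 95% interval) of each measured marker at 1, 10 and 50 µg/ml in a panel each, where filled points have a limma adjusted p under 0.05. Filled points occur only at 50 µg/ml, for Upk1b (0.80), Gpm6a (0.75) and Krt19 (0.35).

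The doses were also compared with each other. Against 10 µg/ml, 3 of the 9 markers were higher at 50 µg/ml and none lower, where 7.75% of all genes were higher and 6.85% lower: Upk1b by 0.80 ± 0.12 (SE; limma adjusted p = 0.000831), Gpm6a by 0.80 ± 0.13 (adjusted p = 0.00138) and Tcf21 by 0.22 ± 0.062 (adjusted p = 0.0309). The Tcf21 call was lost in 7 of 20 alternatives, among them leaving out 10 µg/ml replicate 2, its lowest array (0.16, adjusted p = 0.0823). Against 1 µg/ml, 3 were higher at 50 µg/ml and none lower, where 11.5% of all genes were higher and 13.4% lower: Upk1b by 0.54 ± 0.12 (SE; limma adjusted p = 0.00839), Krt19 by 0.36 ± 0.10 (adjusted p = 0.0233) and Wt1 as given above. With quantile normalization applied again, Upk1b was at 0.32 there (adjusted p = 0.0668), and the Krt19 call was lost without 1 µg/ml replicate 2 (0.293, adjusted p = 0.0933), 1 µg/ml replicate 3 (0.337, adjusted p = 0.0731) or 50 µg/ml replicate 2 (0.254, adjusted p = 0.0996). Gpm6a, at 0.36 ± 0.13 above 1 µg/ml, did not pass there (adjusted p = 0.0706).

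Between the lower doses, Gpm6a was lower at 10 than at 1 µg/ml by a log2 difference of -0.445 ± 0.13 (SE; limma adjusted p = 0.0439), and Wt1 was higher by 0.25 ± 0.072 (adjusted p = 0.0407); 14% of all genes were called in 1 or the other direction. The Gpm6a call was lost in 11 of 20 alternatives, and was -0.33 (adjusted p = 0.172) without 1 µg/ml replicate 3 and -0.36 (adjusted p = 0.153) without 10 µg/ml replicate 2. The Wt1 call was lost in 9 of 20, and was 0.18 (adjusted p = 0.149) without 10 µg/ml replicate 2. These comparisons share arrays with those against vehicle and are not separate evidence.

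Array by array, the highest of the 12 ratios was at 50 µg/ml for 7 of the 9 markers and on 1 µg/ml replicate 3 for Msln and Krt8. The lowest was at 50 µg/ml for 2 markers, Tbx18 and Krt8. Over all probe sets, ratios spread more at 50 µg/ml than in vehicle (SD 0.166 to 0.199 against 0.087 to 0.092). The share of all genes with their highest ratio at 50 µg/ml was not computed, so the 7 of 9 has no background here. The groups at 50 µg/ml and vehicle did not overlap, with 50 µg/ml higher, for 5 of 9 markers; 19.5% of all genes did the same. The median over the 9 markers was 0.22, 0.11 and 0.13 on the 50 µg/ml arrays and -0.005, -0.01 and -0.074 on the vehicle arrays. At 1 µg/ml it was 0.014, -0.075 and 0.092, and at 10 µg/ml -0.079, 0.029 and -0.037, so both lower doses straddled the vehicle values.

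**Figure D4:**
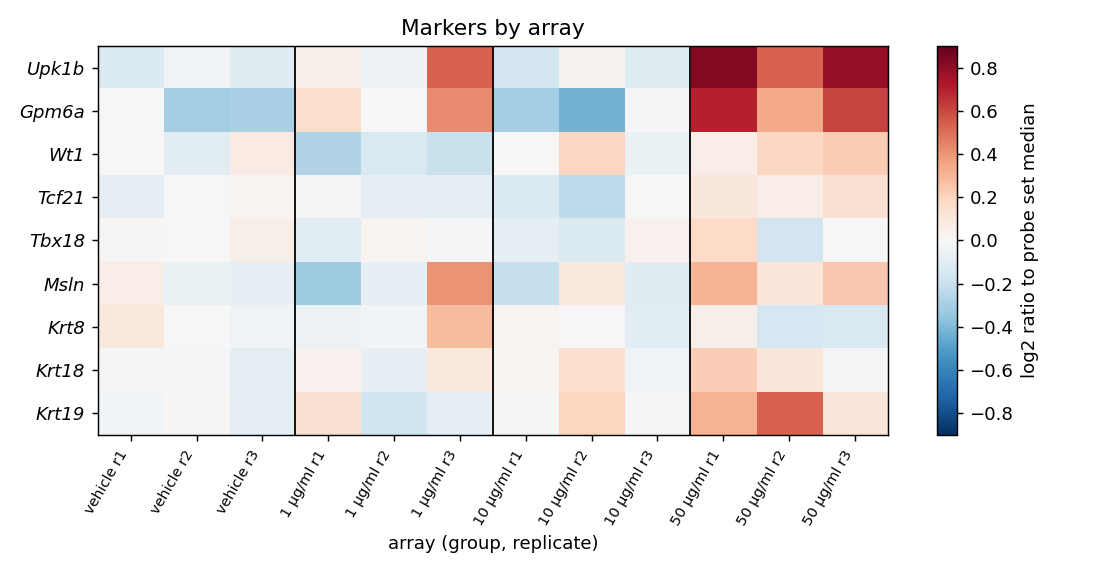
Log2 ratio to the probe set median, averaged over probe sets for Krt8 and Krt18 (colour), of the 9 measured markers (rows) on each of the 12 arrays (columns, by group and replicate). Upk1b and Gpm6a are high on the 3 arrays at 50 µg/ml and on replicate 3 at 1 µg/ml, where they reach 0.53 and 0.42.

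The markers followed each other unevenly over the 12 arrays, which share group differences, litter and normalization. Of the 36 pairs of measured markers, 10 had a Pearson r above 0.5 and 0 had one below -0.5, with a median of 0.30. The highest was Upk1b with Gpm6a, at 0.89, and 0.54 for deviations from the group means. Upk1b with Msln reached 0.78 (0.84 for deviations), and Krt18 with Krt19 0.71 (0.61 for deviations). The lowest was Wt1 with Krt8, at -0.46, and the median over the 36 pairs fell to 0.048 once group means were removed. Upk1b, Gpm6a and Msln were all high for their dose on 1 µg/ml replicate 3, at 0.53, 0.42 and 0.40. That array weighs heavily in the deviations of Upk1b with Msln, and r without it was not computed.

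The genes whose log2 ratios were most like those of each marker over the 12 arrays, by Pearson's r among all measured genes off the list, were as follows. For Upk1b they were Tubb3 (0.97), Nudt19 (0.96) and Capn6 (0.96), and for Gpm6a Rpn1 (0.97), Sema3d (0.96) and Smyd1 (0.95). For Wt1 they were Thap7 (0.96), Lrrc24 (0.95) and Tmem184b (0.95), for Tcf21 Zbtb2 (0.93), B2m (0.90) and Nt5dc2 (0.88), and for Tbx18 Angptl2 (0.89), Tspan1 (0.88) and Lrrc17 (0.87). For Msln they were Spmip9 (0.88), Pak6 (0.87) and Yipf5 (0.86). Krt19 had Mmp17 (0.95), Dok4 (0.94) and Semg1 (0.93), Krt8 had Cct7 (0.86), Or2y16 (0.86) and Clcn3 (0.85), and Krt18 had Vom2r35 (0.87), Gsx2 (0.87) and Dnajb8 (0.87). Each is the top of a search through all measured genes and is given as a description.

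Other genes of the epicardium and mesothelium moved in both directions at 50 µg/ml: of 26 measured out of 31 listed, 7 were higher, 2 lower and 17 did not pass, with a median difference of 0.12. Over all genes 8.75% were higher, 8.84% lower and 17.6% called in either direction at this dose, and the counts of the lists below stand against these shares. Sema3d, a secreted guidance cue of the proepicardium, had log2 ratios of -0.26, -0.089 and -0.22 in vehicle, 0.15, 0.004 and 0.53 at 1 µg/ml, -0.27, -0.54 and -0.004 at 10 µg/ml, and 1.10, 0.57 and 0.95 at 50 µg/ml. It resembled Gpm6a in being high on 1 µg/ml replicate 3 and low on 10 µg/ml replicate 2. Sema3d rose by 1.06 ± 0.16 (SE; limma adjusted p = 0.000513) and Sfrp2, a secreted Wnt modulator, by 0.89 ± 0.12 (adjusted p = 0.000256). Fgf10, a growth factor that acts on epicardial cells and fibroblasts, fell by 0.98 ± 0.086 (SE; limma adjusted p = 8.48e-06). The remaining calls, named after their values were seen, were Slpi (0.735), Ezr (0.43), Aldh1a2 (0.39), Tgm1 (0.27) and Podxl (0.26), which were higher, and Fgf9 (-0.35), which was lower. The Slpi difference had an SE of 0.22 (limma adjusted p = 0.038), and its 50 µg/ml and vehicle arrays overlapped. Podxl, a surface sialomucin of mesothelial cells and vessels, was the 1 gene of this list called at 1 µg/ml, and there it was lower than vehicle (-0.54 ± 0.083, SE; limma adjusted p = 0.00596).

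Relatives of the markers by sequence family were compared at that dose. None of the 4 other uroplakins passed, with differences of 0.026 (Upk2) to 0.11 (Upk1a) and Upk3a at 0.06, and Gpm6b, the M6 relative of Gpm6a, was at 0.027 ± 0.061 (SE; limma adjusted p = 0.828). None of 19 other keratins measured out of 27 passed; the smallest p belonged to Krt17, at 0.16 ± 0.058 (SE; limma adjusted p = 0.0811), followed by Krt16 at 0.24 and Krt2 at 0.11. Of 9 measured T-box and bHLH relatives, Tbx3, a factor of the conduction system, rose by 0.42 ± 0.058 (SE; limma adjusted p = 0.00025) and Tbx5, a cardiac chamber factor, by 0.24 ± 0.075 (adjusted p = 0.0418), and 7 did not pass, Tbx20 among them at -0.087. Whether Upk1b, Gpm6a or Krt19 differed from its relatives was not tested.

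Genes that anchor keratin filaments were called in 2 of 9 cases, beside 17.6% of all genes: Jup, plakoglobin of the desmosome, was higher by 0.44 ± 0.049 (SE; limma adjusted p = 5.05e-05) and Pkp2, plakophilin, by 0.41 ± 0.11 (adjusted p = 0.0175). Both are also parts of the cardiomyocyte's intercalated disc. Plec, the linker plectin, was at -0.18 ± 0.064 and did not pass (limma adjusted p = 0.0778). Of 19 epithelial junction and polarity genes, 2 were higher (Pard6b by 0.26, Llgl2 by 0.23) and Ocln, occludin of the tight junction, was lower, its log2 difference being -0.40. Of 20 genes of the epithelial to mesenchymal change, 5 were higher, 8 lower and 7 did not pass, with a median of -0.13. Among them Itga4, an integrin subunit, fell by 0.565 ± 0.072 (SE; limma adjusted p = 0.000144), Tgfb3 fell by 0.545 ± 0.054 (adjusted p = 2.28e-05) and Tgfbr3, the TGF-beta co-receptor betaglycan, rose by 0.66 ± 0.094 (adjusted p = 0.000352). The cells in which Itga4 fell were not identified.

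The epicardium is a source of retinoic acid in the developing heart, through Aldh1a2. Of 16 measured genes of this pathway, 3 were higher, 2 lower and 11 did not pass, where 8.75% of all genes were higher and 8.84% lower. Aldh1a2, named here after its values were seen, rose by 0.39 ± 0.094 (SE; limma adjusted p = 0.0112) and Dhrs3, a retinaldehyde reductase, by 0.90 ± 0.042 (adjusted p = 9.79e-08). Aldh1a1, which makes retinoic acid in other tissues, fell by 1.54 ± 0.051 (SE; limma adjusted p = 6.33e-09), and Cyp26b1, which degrades it, by 0.41 ± 0.095 (adjusted p = 0.00954). At 1 µg/ml Aldh1a1 was called in the opposite direction, higher than vehicle by 0.53 ± 0.051 (SE; limma adjusted p = 0.000277).

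**Figure D5:**
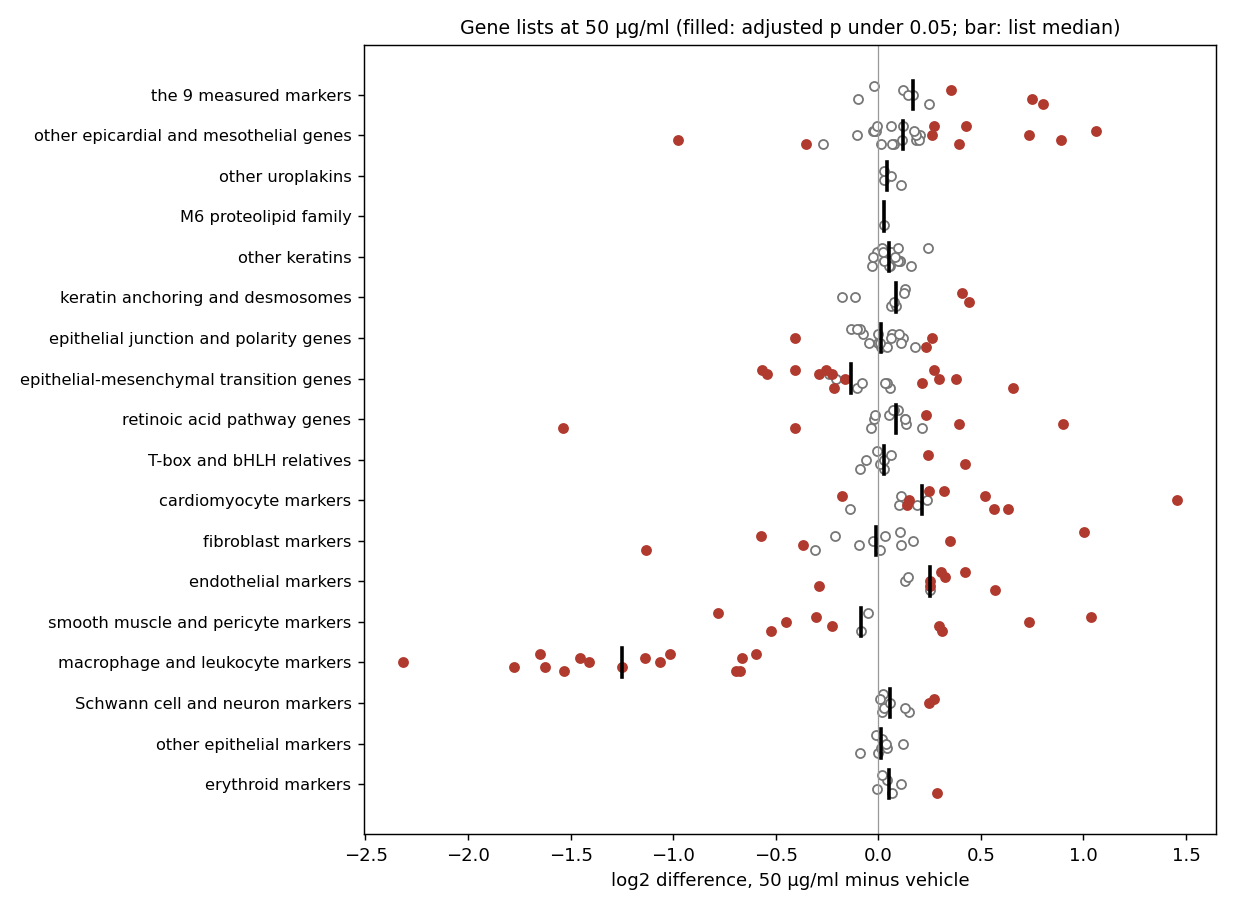
Log2 difference at 50 µg/ml minus vehicle (horizontal axis) of every measured gene of each list (rows), filled where the limma adjusted p is under 0.05, with a bar at the list's median. The median is 0.17 for the epicardial and mesothelial markers and -1.25 for macrophage and leukocyte markers, all 15 of which are filled and to the left of 0.

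Markers of other cells moved at the dose where Upk1b, Gpm6a and Krt19 rose. All 15 macrophage and leukocyte markers were lower, where 8.84% of all genes were, with a median difference of -1.25 and values of -1.41 for Lcp1 and -1.78 for Csf1r; their median log2 ratio ran from 0.18 to 0.26 on vehicle arrays and from -1.17 to -0.96 at 50 µg/ml. Endothelial markers were higher in 6 of 10 cases, Cdh5 by 0.57 among them, and lower in 1, Flt1 (-0.29), with a median of 0.25. Cardiomyocyte markers were higher in 8 of 14, including Myl7 (1.46) and Myl2 (0.56), and lower in 1 (median 0.21), beside 8.75% of all genes higher. Fibroblast markers were split, 2 higher and 3 lower of 14 (Fbln1 1.00, Mfap5 -1.14), as were smooth muscle and pericyte markers, 4 higher and 5 lower of 11 (Abcc9 1.04, Rgs5 -0.78). Of 9 Schwann cell and neuron markers 2 were higher (Tubb3 by 0.27, Uchl1 by 0.25), of 6 erythroid markers 1 (Hbb, by 0.29; Epor, at 0.11, did not pass), and of 8 markers of airway and other epithelia 0 (Sftpc at 0.12 and Cldn4 at -0.087). The part of these cells in the marker results was not tested.

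At 1 µg/ml macrophage markers were lower in 3 of 15 cases, endothelial markers in 3 of 10 and fibroblast markers in 3 of 14, beside 1.74% of all genes. The median macrophage log2 ratio was -0.25 on 1 µg/ml replicate 3, beside 0.098 and 0.015 on the other arrays of that dose. The endothelial median was also lowest there, at -0.30 beside -0.15 and -0.22. On this array Upk1b, Gpm6a, Msln and Krt8 each had their highest ratio of that dose, as did Krt18 as the mean of its 2 probe sets. Read alone, probe set 10813992 of Krt18 was highest on replicate 1 (0.335, beside 0.195 on replicate 3). Whether the marker ratios and these medians are linked was not tested. At 10 µg/ml no gene of any list was called.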

How the data were processed

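RNA from 12 cultures was measured on 12 Affymetrix arrays. RMA (version not given in the sources used here) summarised the probes, per the submitters' processing notes. The values the authors deposited were read as linear ratios of each array to the probe set's median over the 12 arrays. The values themselves show the scaling to that median, but not the direction of the ratio. They ran from 0.165 to 12.2. Levels, detection calls, dates and the array's genome build were not analysed here. Coordinates and promoters come from RefSeq tables of GRCr8.

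Of 27342 probe sets, 15097 had 1 gene symbol in the platform annotation, 323 had several and 11922 had none. A gene was the mean log2 ratio of its probe sets with 1 symbol. Entrez identifiers of 14299 of 14324 genes were found in GRCr8, which changed 0 symbols. Group means over all 12 arrays were fitted in R 4.3.3 by limma 3.58.1 (lmFit, eBayes, 8 residual degrees of freedom, two-sided), with Benjamini-Hochberg adjustment over all genes and a threshold of 0.05. The median residual SD was 0.082 on the log2 scale, and the number of arrays limits the precision. The script was tested on simulated data. Promoters were searched with Python 3.11.15.

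The markers and gene lists were chosen with earlier results of these data known. Named were all listed markers, the 3 genes of smallest p per pathway list and the 2 per list of other cell types at 50 µg/ml against vehicle, and the 3 genes most like each marker; exceptions are stated where they occur. Alternatives were another scaling, centring, robust moderation, array weights, fits of only the compared groups or over probe sets, a replicate block, and leaving out each array.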

Additional observations from a re-analysis of the deposited data

How the results depend on the processing

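Upk1b and Gpm6a at 50 µg/ml against vehicle passed under all 20 alternatives. For any comparison, many alternatives cannot change the difference, only its SE and p. Examples are robust moderation, a fit of only the compared groups, and leaving out an array of another group. A count of alternatives passed is therefore not a count of separate challenges. Of the 27 differences from vehicle, only those of Upk1b, Gpm6a and Krt19 at 50 µg/ml were calls, and 13 were smaller than their SE. Keeping a result below therefore mostly means staying uncalled. Of 546 recomputed differences from vehicle, 535 kept both their side of the threshold and any direction that was read. A call was lost in 6, all of Krt19 at 50 µg/ml (adjusted p up to 0.128 in limma), and gained in 4 (Gpm6a at 1 µg/ml and Msln at 50 µg/ml). The remaining 1, Krt18 at 10 µg/ml, stayed uncalled but turned from 0.081 to -0.012 when read by 1 of its probe sets. The other 28 of 29 sign changes were of differences smaller than their SE, whose direction is not read; the cause was not tested. Markers called at 1 µg/ml became 1 with array weights and 1 with the replicate block (Gpm6a both times); at 50 against 10 µg/ml 5 with array weights; at 50 against 1 µg/ml 2 to 5 on leaving out arrays; and at 10 against 1 µg/ml 0 with repeated quantile normalization, 0 with only the compared groups, 0 over probe sets and 0 to 2 on leaving out arrays. Genes called at 10 µg/ml were 15 with repeated quantile normalization, 90 with array weights and 0 to 1 on leaving out arrays; at 1 µg/ml 1139 with quantile normalization, 1772 with array weights, 1661 with only the compared groups and 176 to 1282 on leaving out arrays. They were 3457 (array weights) and 1312 (only the compared groups) at 50 against 10 µg/ml, 2321 (quantile normalization) at 50 against 1 µg/ml, and 3155 (array weights), 697 (only the compared groups) and 820 to 2694 (leaving out arrays) at 10 against 1 µg/ml. Leaving out 1 µg/ml replicate 3 and 10 µg/ml replicate 2 together, an alternative chosen after seeing the data, gave 4 markers at 50 µg/ml against vehicle (Msln added), 5 at 50 against 1 µg/ml and, at 10 against 1 µg/ml, 0 markers and 429 genes. Same-numbered arrays of different groups had deviations correlated from -0.23 to 0.43, above 0.1 in 6 of 18 pairs. Arrays with different numbers ranged from -0.48 to 0.49, above 0.1 in 10 of 36 pairs, so the numbers were not taken to pair cultures. With the replicate block, 2540 genes and 3 markers were called at 50 µg/ml and 742 genes at 1 µg/ml. Arrays carry no read depth, and their number, 3 per group, limits the precision.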
